A study of Rattus norvegicus with 12 samples.

Results

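Potassium channel genes were followed in rat dorsal root ganglia over the first hours after the sciatic nerve had been cut. The members were all gene names of the array that begin with Kcn and a further lower-case letter, so that pore-forming subunits, their ancillary subunits and regulators of channel assembly are included. There were 89 such genes among 35287 gene names, measured by 104 probes. Each gene was represented by its probe with the highest mean signal over all 12 arrays, and 12 members had more than 1 probe. The tissue was lumbar ganglia of male Sprague-Dawley rats, anaesthetised with trichloroacetaldehyde monohydrate, magnesium sulfate and sodium pentobarbital, in which 1 cm of the left sciatic nerve had been removed at mid-thigh. Ganglia were taken at 0.5 h, 3 h, 6 h or 9 h. There were 24 rats, 6 per time, and 3 arrays per time, and the labels do not say whether an array holds 1 rat or several. No uninjured or sham-operated group is labelled, so every rat had been operated on and 0.5 h is the earliest time, not a baseline. The p-values measure the spread between these arrays, part of which may be technical.

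Potassium channels let potassium leave the cell and so pull the membrane back towards rest, which limits how readily a sensory neuron fires. Voltage-gated (Kv) channels open on depolarisation, inward rectifiers and two-pore channels hold the resting potential, and calcium- or sodium-activated channels shape the pause after an action potential. Sensory ganglia are known for a rich set of these channels, and a lower level of several of them is a known late feature of ganglia whose axons have been cut.

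A level below is log2 of the scanner's background-subtracted signal minus the same array's 75th percentile, so that 1 unit is a doubling. Differences are later minus earlier on this log2 scale, with the standard error (SE) of the fit. A gene rose or fell where its limma p, adjusted by Benjamini-Hochberg over all 29626 genes tested, was under 0.05. Of the 89 members, 84 were detected (flagged by the scanner software as well above background) on all 3 arrays of some time and were tested. Of these, 65 were detected on all 12 arrays. Members not tested for that reason included Kcna7, Kcnj1, Kcnj2 and Kcnk15. At 0.5 h 12 tested members were detected on none of the arrays. Those arrays detected 63.3 to 67.6% of all probes, against 82.3 to 85.4% at the later times. Their median local background was also higher, at 64 to 86 against 37 to 45 on the later arrays. Its part in what was detected at 0.5 h was not tested. For those 12, a later rise is only a bound, given as at least N-fold where one can be had. For this bound the mean where the gene was detected is set against a floor where it was not. The floor is each array's lowest detected signal, or the probe's own value if that is higher, averaged over the arrays. Arrays of the same time correlated at 0.988 to 0.996 and those of different times at 0.981 to 0.992. All 0.5 h arrays were on 1 slide and scan day, all 3 h arrays on 1 slide, and all 9 h arrays on a further slide and day, so slide and time cannot be told apart for those times. The 6 h arrays were split over 2 slides, and their scan day was that of the 3 h slide. The arrays were of whole ganglia, so fewer cells of a type and less RNA per cell cannot be told apart.

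By 3 h, Kcnh2, Kcns2, Kcnj3, Kcnh3, Kcnd3, Kcna6 and Kcnj8 fell by 0.52 to 1.15, and Kcng2 rose, each call holding when any 1 array was left out. The fall of Kcnh3, which was detected on 1 of 3 arrays at 0.5 h, was not called with the common floor described below. Kcnj3 was not called at 3 h or 9 h with the mean of its probes. The probe that the array names Kcnd3 is placed on another chromosome than the gene, as given below. Going by the array's names, the genes that fell encode an ERG channel, a silent subunit, a GIRK subunit, Kv12, Kv4, Kv1 and Kir6.1 channels. By 9 h, Kcnj3, Kcnh2, Kcnq3, Kcnip1, Kcnb2 and Kcnmb2 were lower than at 0.5 h on the same terms, by 0.29 to 1.09, while Kcns2, Kcnd3 and Kcnj8 no longer differed from 0.5 h past the threshold. Kcng4 and Kcnmb3 rose by 0.94 and 1.20 by 9 h on the same terms. So did Kcng2, Kcna5, Kcnip2 and Kcnn3, by 0.66, 0.61, 0.48 and 0.48. Kcnk3, undetected at 0.5 h, rose at least 1.63-fold, though not under cyclic loess scaling. Kcnv2, Kcnrg, Kcnq1 and Kcne2 were called higher at 9 h with no usable bound. A call is said below to have ended where its adjusted p was no longer under 0.05 without the array or under the setting named, and member calls with no array named held without any 1 array. The settings were 3 other scalings, a common floor (signals under 1 detection floor for all arrays set to it), the mean of a gene's probes, no probe filter, a filter for genes detected on all arrays, limma-trend, p adjusted over genes detected on all 3 arrays of either time, a random block for slide, and a fit of only the 2 times compared. Apart from normexp background correction and a block for the replicate number, given further down by their counts, a setting that is not named left the call in place or had no value.

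The share of members called lay near that of all genes in most comparisons. From 0.5 h to 3 h, 7 members rose and 9 fell, where 10.7% of all genes rose and 12.5% fell. From 0.5 h to 6 h, 2 rose and 5 fell, where 4.01% of all genes rose and 9.43% fell. From 0.5 h to 9 h, 21 rose and 8 fell, where 22.4% of all genes rose and 10.9% fell. These 3 comparisons share the 0.5 h arrays. From 3 h to 6 h, 9 rose and 4 fell, where 5.71% of all genes rose and 5.58% fell, so that rises made up 10.7% of members in that comparison. Of those 9 rises, the ones of Kcns2, Kcnh2 and Kcnip1 held without any 1 array. From 6 h to 9 h, 21 rose and 5 fell, where 19.1% rose and 5.95% fell. Kcne4 and Kcnj15 were kept only because all 9 h arrays detected them, so their rises to 9 h, 1 of the 21 from 0.5 h and 2 of the 21 from 6 h, are built into that filter. Kcne2, Kcnj10, Kcnk3, Kcnq1, Kcnrg and Kcnv2, also among the rises from 0.5 h to 9 h, were undetected at 0.5 h and kept only through later arrays. So were Kcne2 and Kcnq1 among the rises at 3 h, and Kcne2 among those at 6 h. The filter favours such rises, and shares over genes detected on all 12 arrays are given below. Over the 4 times together the F test called 37 of 84 members, against 44.2% of all genes.

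Among genes well above background on all 12 arrays, 13 of 65 members were called at 3 h against 0.5 h (25.3% of all such genes), 5 at 6 h (13.3%) and 20 at 9 h (30.0%). The same counts were 11 of 65 from 3 h to 6 h (12.9%) and 16 of 65 from 6 h to 9 h (20.4%). The median difference of these 65 members was 0.032 at 3 h, -0.091 at 6 h and 0.049 at 9 h against 0.5 h, beside 0.023, -0.036 and 0.032 for all 21475 such genes. It was -0.066 from 3 h to 6 h and 0.12 from 6 h to 9 h, beside -0.068 and 0.054.

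**Figure D1:**
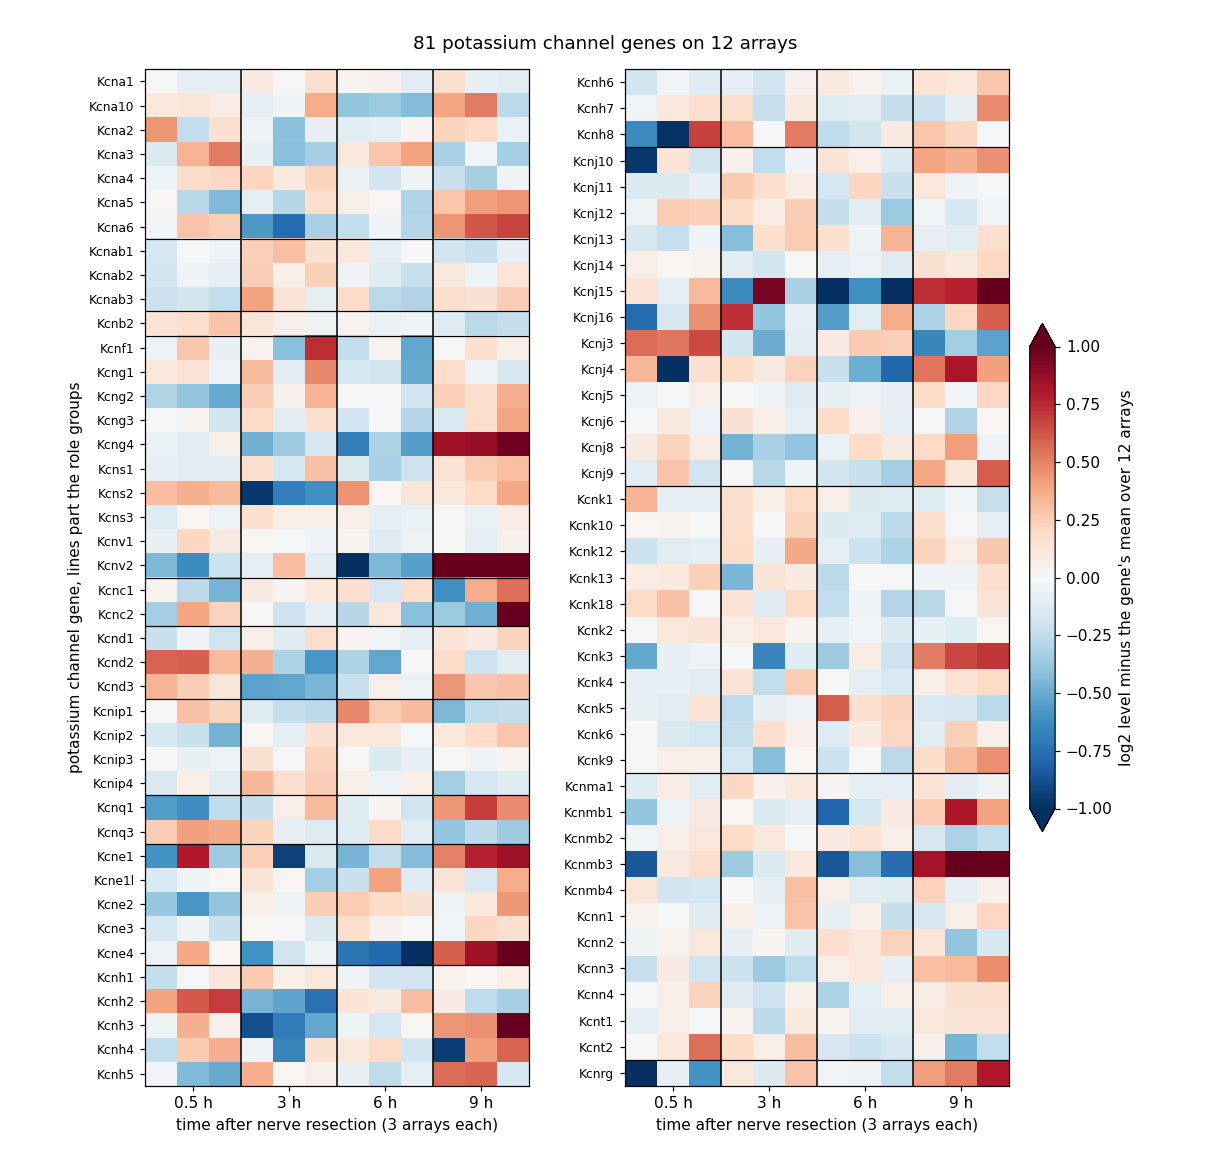
Levels of 81 tested members (rows, grouped by role) on the 12 arrays (columns, 3 per time), as log2 level minus the gene's own mean over the arrays; red is above and blue below that mean, and the colours stop at the ends of the bar. Kcns2, Kcnh2 and Kcnh3 are lowest at 3 h, Kcnj3 is highest at 0.5 h, and Kcng4, Kcnv2 and Kcnmb3 are highest at 9 h.

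The Kv1 family (Kcna) makes the low-threshold delayed rectifiers and A-type channels of sensory axons and cell bodies. Of 7 tested members, 1 fell at 3 h, none was called at 6 h (3 at an unadjusted p under 0.05), and 2 rose and 1 fell at 9 h. Of all genes, 12.5% fell at 3 h, 4.01% rose and 9.43% fell at 6 h, and 22.4% rose and 10.9% fell at 9 h. Kcna6, a delayed rectifier subunit, was at -2.54, -2.23 and -2.27 at 0.5 h, and -3.09, -3.29 and -2.84 at 3 h. Kcna6 was then at -2.76, -2.55 and -2.80 at 6 h, and -2.07, -1.89 and -1.84 at 9 h. The 3 h arrays lay below all the others, and the 9 h arrays lay above all the others. Kcna6 fell by 0.73 (SE 0.13, adjusted p = 0.00399), 1.65-fold, from 0.5 h to 3 h and rose by 0.77 (SE 0.13, adjusted p = 0.00172) from 6 h to 9 h. Its rise of 0.41 (SE 0.13, adjusted p = 0.0356) from 0.5 h to 9 h ended without 0.5 h replicates 1 or 3, 3 h replicate 1 or 9 h replicates 2 or 3 (adjusted p = 0.0506 to 0.113), as well as under median and cyclic loess scaling and with the common floor. Kcna5, another delayed rectifier, was at -1.47, -1.77 and -1.93 at 0.5 h, and -1.59, -1.78 and -1.32 at 3 h. Kcna5 was then at -1.43, -1.47 and -1.79 at 6 h, and -1.21, -1.08 and -1.05 at 9 h. Its 9 h arrays lay above all earlier ones, and it rose by 0.61 (SE 0.15, adjusted p = 0.0126) at 9 h. Kcna4, which makes a fast-inactivating A-type channel of small sensory neurons, fell by 0.31 (SE 0.095, adjusted p = 0.0292) at 9 h, but its arrays at these times overlapped and the call ended without 0.5 h replicates 2 or 3 or 9 h replicates 1 or 2 (adjusted p = 0.0673 to 0.0992), as well as with only the 2 times fitted.

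Kcna1 and Kcna2, the main Kv1 subunits of large sensory neurons, were not called in any of the 5 comparisons. The probe used for Kcna1 was at 5.69 ± 0.053 at 0.5 h, 5.84 ± 0.078 at 3 h, 5.73 ± 0.087 at 6 h and 5.74 ± 0.15 at 9 h. A second Kcna1 probe, also well above background on all 12 arrays, was at 1.88 ± 0.079 at 0.5 h, 1.60 ± 0.15 at 3 h, 1.39 ± 0.041 at 6 h and 1.34 ± 0.32 at 9 h. That second probe was lower at 9 h than at 0.5 h by 0.55 (adjusted p = 0.0158 among all probes kept), with its highest 9 h array at 1.69 and its lowest 0.5 h array at 1.79, so the 2 probes of Kcna1 did not give the same course. Kcna2 was at -1.79 ± 0.35 at 0.5 h, -2.08 ± 0.20 at 3 h, -1.97 ± 0.073 at 6 h and -1.80 ± 0.16 at 9 h, and its 9 h arrays overlapped with those of 0.5 h. Kcna10 was called higher only from 6 h to 9 h (adjusted p = 0.0392), a call that ended without 0.5 h replicates 1, 2 or 3, 6 h replicates 1, 2 or 3 or 9 h replicates 1 or 2 (adjusted p = 0.0523 to 0.125), as well as under median, quantile and cyclic loess scaling, with the common floor and with only the 2 times fitted. Kcna3, a Kv1 subunit also found in immune cells, was at -2.25 ± 0.34 at 0.5 h, -2.77 ± 0.18 at 3 h, -2.23 ± 0.14 at 6 h and -2.72 ± 0.17 at 9 h, and its differences at 3 h and 9 h of -0.52 and -0.47 missed the threshold (adjusted p = 0.0535 and 0.0583). A second Kcna3 probe, well above background on 9 of 12 arrays, went the other way at 9 h. It was higher at 9 h than at 0.5 h by 1.18 (adjusted p = 0.0273 among all probes kept). From 6 h to 9 h it was higher by 1.17 (adjusted p = 0.0347). Its 9 h arrays were far apart, at -6.02, -4.65 and -4.30.

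Kvbeta subunits (Kcnab) bind Kv1 channels in the cytosol, speed their inactivation and help them reach the membrane. Both measurable ones were higher at 3 h than at 0.5 h on every array. Kcnab1 was at 0.70, 0.86 and 0.84 at 0.5 h, and 1.11, 1.18 and 1.03 at 3 h. Kcnab1 was then at 0.98, 0.78 and 0.87 at 6 h, and 0.69, 0.65 and 0.79 at 9 h. It rose by 0.31 (SE 0.075, adjusted p = 0.0172) at 3 h. A second Kcnab1 probe, well above background on all 12 arrays, was higher at 3 h by 0.34 (adjusted p = 0.226). At 9 h that probe differed from 0.5 h by -0.55 (adjusted p = 0.0476 among all probes kept). Its difference from 6 h to 9 h was -0.60 (adjusted p = 0.0431). Kcnab2 was at -1.37, -1.22 and -1.27 at 0.5 h, and -0.93, -1.13 and -0.94 at 3 h. Kcnab2 was then at -1.22, -1.30 and -1.40 at 6 h, and -1.09, -1.23 and -1.06 at 9 h. It rose by 0.29 (SE 0.080, adjusted p = 0.0293). The call of Kcnab1 ended without 0.5 h replicate 1 or 3 h replicates 1 or 2 (adjusted p = 0.0523 to 0.0562), as well as with the mean of its probes and with only the 2 times fitted. That of Kcnab2 ended without 0.5 h replicates 1 or 3 or 3 h replicates 1 or 3 (adjusted p = 0.0628 to 0.0991), as well as with only the 2 times fitted. Kcnab2 fell by 0.30 (SE 0.080, adjusted p = 0.0385) from 3 h to 6 h, which ended without 0.5 h replicates 2 or 3, 3 h replicates 1 or 3 or 6 h replicates 2 or 3 (adjusted p = 0.0503 to 0.145), as well as under median, quantile and cyclic loess scaling, with no probe filter and with only the 2 times fitted. On the probes used, no Kvbeta gene differed from 0.5 h past the threshold at 6 h or 9 h (0 and 1 at an unadjusted p under 0.05). Kcnab3 was not well above background at 0.5 h.

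Kv2 channels (Kcnb) carry much of the slow delayed rectifier current of sensory neurons, and the silent subunits (Kcnf, Kcng, Kcns and Kcnv) form no channel alone but change Kv2 channels when they assemble with them. The pore subunit Kcnb2 was at -1.74, -1.69 and -1.59 at 0.5 h, and -1.75, -1.82 and -1.92 at 3 h. Kcnb2 was then at -1.85, -1.94 and -1.91 at 6 h, and -2.00, -2.14 and -2.11 at 9 h. Its 9 h arrays lay below all others, and it fell by 0.41 (SE 0.069, adjusted p = 0.00193) at 9 h.

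The silent subunits took separate courses. Kcns2 was at -3.45, -3.40 and -3.45 at 0.5 h, and -4.73, -4.45 and -4.38 at 3 h. Kcns2 was then at -3.31, -3.74 and -3.65 at 6 h, and -3.65, -3.56 and -3.38 at 9 h. The 3 h arrays stood apart from the other 9, below all of them. Kcns2 fell by 1.08 (SE 0.13, adjusted p = 0.000424), 2.12-fold, by 3 h, rose by 0.95 (SE 0.13, adjusted p = 0.00132) by 6 h and at 9 h differed from 0.5 h by -0.095 (SE 0.13, adjusted p = 0.594). Kcng4 was at -2.96, -3.01 and -2.85 at 0.5 h, and -3.38, -3.26 and -3.08 at 3 h. Kcng4 was then at -3.59, -3.21 and -3.45 at 6 h, and -2.05, -2.03 and -1.92 at 9 h. Its 9 h arrays lay above all others. Kcng4 rose by 0.94 (SE 0.11, adjusted p = 0.000309) against 0.5 h, 1.92-fold, and by 1.42 (SE 0.11, adjusted p = 2.05e-05) against 6 h, 2.67-fold. Its fall of 0.48 (SE 0.11, adjusted p = 0.0196) at 6 h ended without 0.5 h replicate 3 or 6 h replicates 1 or 3 (adjusted p = 0.062 to 0.0671), as well as with only the 2 times fitted.

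Kcng2 was at -2.79, -2.89 and -2.99 at 0.5 h, and -2.24, -2.45 and -2.14 at 3 h. Kcng2 was then at -2.48, -2.51 and -2.69 at 6 h, and -2.25, -2.31 and -2.13 at 9 h. All later arrays lay above all 0.5 h arrays, and Kcng2 rose by 0.61 (SE 0.097, adjusted p = 0.00223) at 3 h and by 0.66 (SE 0.097, adjusted p = 0.00103) at 9 h. Its rise of 0.33 (SE 0.097, adjusted p = 0.0334) from 6 h to 9 h ended without 6 h replicates 2 or 3 or 9 h replicates 1 or 3 (adjusted p = 0.0596 to 0.126), as well as under median, quantile and cyclic loess scaling. At 6 h it was higher than at 0.5 h by 0.33, which missed the threshold (adjusted p = 0.0508). Its 2 other probes, both well above background on all 12 arrays, were higher at 9 h by 0.48 (adjusted p = 0.0102) and 0.53 (adjusted p = 0.0189), and at 3 h by 0.22 (adjusted p = 0.189) and 0.16 (adjusted p = 0.456). Kcns1, a subunit whose human variants have been linked to pain, was at 2.20, 2.17 and 2.16 at 0.5 h, and 2.44, 2.10 and 2.57 at 3 h. Kcns1 was then at 2.14, 1.96 and 2.07 at 6 h, and 2.42, 2.54 and 2.58 at 9 h. It rose by 0.46 (SE 0.11, adjusted p = 0.0124) from 6 h to 9 h, though not under median scaling, and its rise of 0.34 (SE 0.11, adjusted p = 0.0395) against 0.5 h ended without 0.5 h replicates 1, 2 or 3, 3 h replicate 1, 6 h replicate 3 or 9 h replicates 2 or 3 (adjusted p = 0.0522 to 0.11), as well as under median scaling and with the common floor. Kcns3 and Kcnv1 were not called in any comparison, with time means of 2.80 to 2.95 and 1.20 to 1.32. Kcnf1, Kcng1 and Kcng3 (time means of the last from -3.39 to -3.09) were not called either. Kcnv2 was not well above background at 0.5 h. It was at -6.97, -7.16 and -6.73 at 0.5 h, and -6.62, -6.21 and -6.62 at 3 h. Kcnv2 was then at -7.62, -6.97 and -7.06 at 6 h, and -5.32, -5.52 and -5.44 at 9 h. From 6 h, where 2 of 3 arrays detected it, to 9 h, where all 3 did, the fitted rise was 1.79 (SE 0.18, adjusted p = 8.3e-05), and the call ended with the common floor. It was also called higher at 9 h than at 0.5 h, with no usable bound (adjusted p = 0.000364), which ended with the common floor. Its fall of 0.73 (SE 0.18, adjusted p = 0.0317) from 3 h to 6 h ended without 3 h replicates 1, 2 or 3 or 6 h replicates 1 or 3 (adjusted p = 0.0533 to 0.0835), as well as under quantile and cyclic loess scaling, with the common floor, with limma-trend and with only the 2 times fitted.

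Kv3 channels (Kcnc) open at strong depolarisation, close fast and allow high firing rates. Kcnc1 and Kcnc2 were not called in any comparison, and Kcnc4 was not found under that name.

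Kv4 channels (Kcnd) carry the fast A-type current that delays firing, and KChIP proteins (Kcnip) are their calcium-binding partners, which raise surface expression and slow inactivation. Kcnd3 was at -2.02, -2.11 and -2.23 at 0.5 h, and -2.89, -2.87 and -2.81 at 3 h. Kcnd3 was then at -2.58, -2.30 and -2.41 at 6 h, and -1.91, -2.08 and -2.06 at 9 h. The 3 h arrays lay below all other arrays, and the 9 h arrays were back in the range of 0.5 h or above it. Kcnd3 fell by 0.74 (SE 0.087, adjusted p = 0.000436), 1.67-fold, by 3 h, rose by 0.41 (SE 0.087, adjusted p = 0.00656) from 6 h to 9 h, though not under median scaling, and differed at 9 h from 0.5 h by 0.10 (SE 0.087, adjusted p = 0.397). Its rise of 0.43 (SE 0.087, adjusted p = 0.0124) from 3 h to 6 h ended without 6 h replicate 3 (adjusted p = 0.0512). Its fall of 0.31 (SE 0.087, adjusted p = 0.0446) from 0.5 h to 6 h ended without 0.5 h replicates 1 or 2, 3 h replicates 1, 2 or 3, 6 h replicates 1 or 3 or 9 h replicates 2 or 3 (adjusted p = 0.0538 to 0.137), as well as under median and quantile scaling and with only the 2 times fitted. The files place this probe on the older rat assembly rn4 at chr3:128922797-128922856, while the current RefSeq gene table (assembly GRCr8) lists Kcnd3 on another chromosome. Of the members, 86 lay on the same chromosome in both, 1 (Kcnd3) differed and 2 could not be compared, so the value is that of the probe the array names Kcnd3. Its only other probe was detected on none of the arrays.

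Kcnd1 was at 3.19, 3.38 and 3.21 at 0.5 h, and 3.47, 3.29 and 3.59 at 3 h. Kcnd1 was then at 3.44, 3.39 and 3.32 at 6 h, and 3.54, 3.50 and 3.64 at 9 h, and all its 9 h arrays lay above all 0.5 h arrays. It rose by 0.30 (SE 0.086, adjusted p = 0.0251) at 9 h, a call that ended without 0.5 h replicates 1 or 3 or 9 h replicate 3 (adjusted p = 0.0749 to 0.0823), as well as under median scaling. Kcnd2 was at -3.65 ± 0.16 at 0.5 h, -4.33 ± 0.48 at 3 h, -4.42 ± 0.27 at 6 h and -4.19 ± 0.20 at 9 h. Its lower values at 3 h, 6 h and 9 h (-0.68, -0.77 and -0.55) missed the threshold (adjusted p = 0.0579, 0.0514 and 0.0932), although all arrays of 6 h and 9 h lay below all those of 0.5 h.

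Of the 4 KChIP genes, Kcnip1 was at -2.16, -1.85 and -1.92 at 0.5 h, and -2.26, -2.38 and -2.40 at 3 h. Kcnip1 was then at -1.67, -1.89 and -1.83 at 6 h, and -2.59, -2.40 and -2.39 at 9 h. Its arrays fell into a high set at 0.5 h and 6 h and a low set at 3 h and 9 h, without overlap. Kcnip1 rose by 0.56 (SE 0.098, adjusted p = 0.00623) from 3 h to 6 h and fell by 0.66 (SE 0.098, adjusted p = 0.000756) from 6 h to 9 h, and it was lower at 9 h than at 0.5 h by 0.48 (SE 0.098, adjusted p = 0.00519). Its fall of 0.37 (SE 0.098, adjusted p = 0.0232) at 3 h ended without 0.5 h replicates 2 or 3 or 3 h replicates 2 or 3 (adjusted p = 0.0602 to 0.0768), as well as under median scaling and with only the 2 times fitted. The files give its probe no place in the genome. A fall by 3 h, a rise by 6 h and a fall by 9 h, each called, was seen for 3 of 84 members, Kcnip1 and Kcnj3 among them, and for 3.05% of all genes.

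Kcnip2 was at -1.88, -1.92 and -2.17 at 0.5 h, and -1.69, -1.79 and -1.55 at 3 h. Kcnip2 was then at -1.59, -1.58 and -1.71 at 6 h, and -1.60, -1.50 and -1.42 at 9 h. All later arrays lay above all 0.5 h arrays, and Kcnip2 rose by 0.48 (SE 0.095, adjusted p = 0.00425) at 9 h. The earlier rises of 0.31 (SE 0.095, adjusted p = 0.0394) at 3 h and 0.36 (SE 0.095, adjusted p = 0.0341) at 6 h did not hold. That at 3 h ended without 0.5 h replicates 2 or 3, 3 h replicates 1 or 3, 6 h replicates 1, 2 or 3 or 9 h replicate 2 (adjusted p = 0.05 to 0.119), as well as with only the 2 times fitted. That at 6 h ended without 0.5 h replicates 2 or 3, 3 h replicate 1, 6 h replicates 1, 2 or 3 or 9 h replicate 2 (adjusted p = 0.051 to 0.0994), as well as with only the 2 times fitted. Kcnip4 was at 1.20 ± 0.12 at 0.5 h, 1.52 ± 0.080 at 3 h, 1.29 ± 0.061 at 6 h and 1.06 ± 0.12 at 9 h. It was higher at 3 h on all arrays than at any other time, and rose by 0.32 (SE 0.083, adjusted p = 0.0223) at 3 h, a call that ended without 0.5 h replicates 1 or 3 or 3 h replicates 1 or 3 (adjusted p = 0.0513 to 0.0807), as well as with only the 2 times fitted. Kcnip3, also known as the transcriptional repressor DREAM, was at -0.65 ± 0.037 at 0.5 h, -0.48 ± 0.12 at 3 h, -0.68 ± 0.070 at 6 h and -0.60 ± 0.034 at 9 h. It was not called in any comparison.

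**Figure D2:**
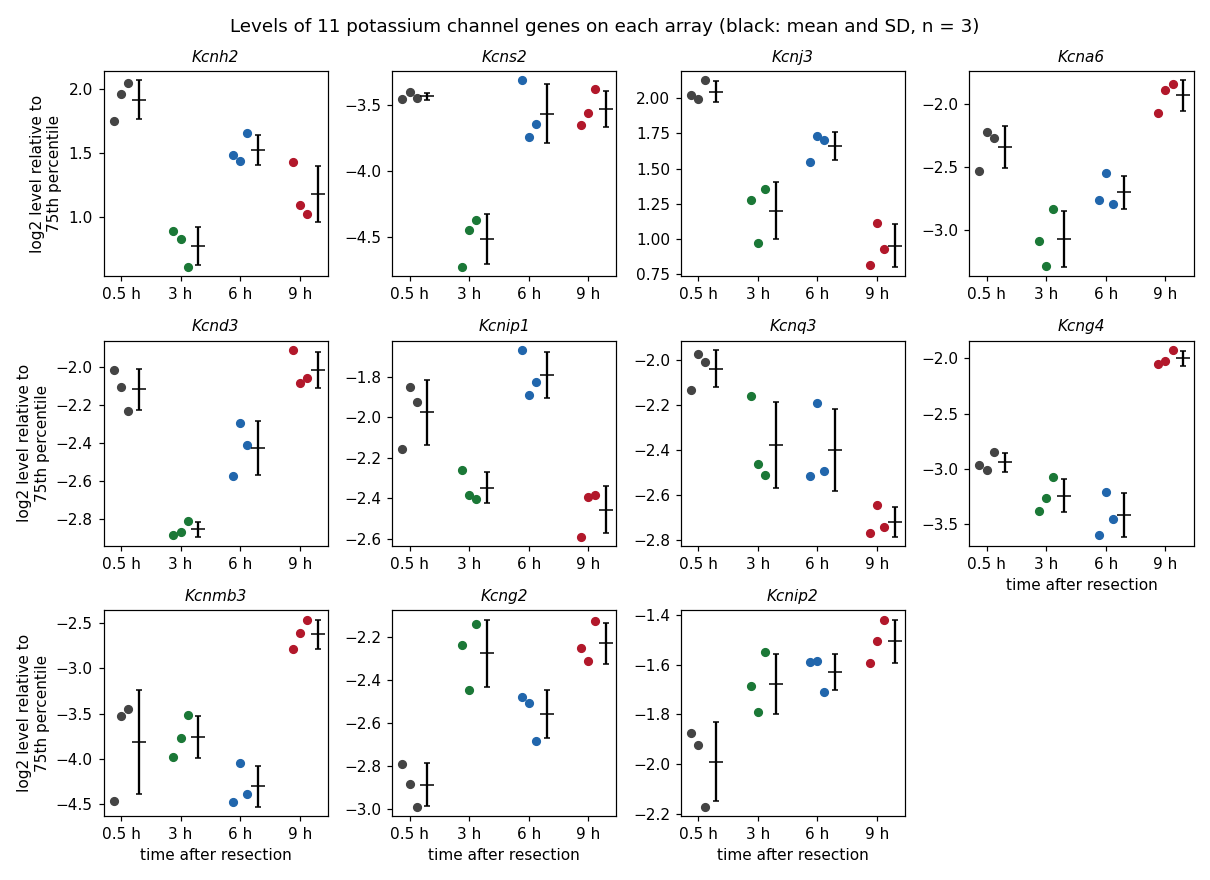
Levels of 11 members on each array (coloured points, 3 per time, log2 relative to the array's 75th percentile) with the mean and SD of each time in black; each panel has its own scale. Kcns2 and Kcnd3 are low at 3 h and back near their 0.5 h range at 9 h, Kcnq3 is lowest at 9 h, and Kcng4 is at -2.85 or lower up to 6 h and has a mean of -2.00 at 9 h.

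Kv7 channels (Kcnq) carry the M current, a slow brake on repeated firing, and Kcne proteins are single-pass subunits that change the gating of Kv7 and other Kv channels. Kcnq3, a subunit of neuronal M channels, was at -2.13, -1.98 and -2.01 at 0.5 h, and -2.16, -2.46 and -2.51 at 3 h. Kcnq3 was then at -2.52, -2.19 and -2.50 at 6 h, and -2.77, -2.65 and -2.74 at 9 h. All 9 h arrays lay below all others. Kcnq3 fell by 0.68 (SE 0.11, adjusted p = 0.00188), 1.6-fold, at 9 h, and its lower values at 3 h and 6 h missed the threshold (adjusted p = 0.056 and 0.0628). Kcnq1, best known from heart and epithelia, was undetected on every 0.5 h array. From 6 h to 9 h, where all 6 arrays measured it, it rose by 0.63 (SE 0.15, adjusted p = 0.0108), a call that ended under median, quantile and cyclic loess scaling and with the common floor, and with quantile scaling the difference was -0.043. It was called higher than at 0.5 h at 9 h (adjusted p = 0.000976) and 3 h (adjusted p = 0.0304) with no usable bound. The first of these ended with the common floor, and the second without 0.5 h replicates 1 or 2 or 3 h replicates 2 or 3 (adjusted p = 0.0699 to 0.0945), as well as with the common floor, with limma-trend and with only the 2 times fitted. Kcnq5 was not found under that name.

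Kcne4, an inhibitory subunit of Kv1 and Kv7 channels, was well above background on all 9 h arrays and on none of the earlier 9. It was at -7.02, -6.57 and -6.94 at 0.5 h, and -7.56, -7.16 and -7.01 at 3 h. Kcne4 was then at -7.69, -7.73 and -7.97 at 6 h, and -6.36, -6.11 and -5.38 at 9 h. Its 9 h level was at least 2.75-fold above that of 6 h. Because Kcne4 was kept only through its 9 h arrays, no test is given for its rises to 9 h, and its call at 6 h against 0.5 h, dim at both times, is no measured difference. Kcne2 was undetected on every 0.5 h array and was at -5.66 ± 0.11 at 0.5 h, -5.12 ± 0.15 at 3 h, -5.01 ± 0.053 at 6 h and -5.04 ± 0.24 at 9 h. It was called higher than at 0.5 h at all 3 later times (adjusted p = 0.0124, 0.00945 and 0.0045), with no usable bound. All 3 calls ended with the common floor, and that at 9 h also under quantile scaling. Kcne3 rose by 0.27 (SE 0.085, adjusted p = 0.0371) at 9 h, a call that ended without 0.5 h replicates 1 or 3, 6 h replicate 2 or 9 h replicates 2 or 3 (adjusted p = 0.0517 to 0.118), as well as under median and quantile scaling and with only the 2 times fitted. Kcne1 and Kcne1l, whose current symbol is Kcne5, were not called.

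Kv10, Kv11 and Kv12 channels (Kcnh) include the ERG channels, which close slowly and set the firing threshold and spike frequency adaptation. Kcnh2, which encodes ERG1, was at 1.75, 1.96 and 2.05 at 0.5 h, and 0.89, 0.82 and 0.60 at 3 h. Kcnh2 was then at 1.48, 1.44 and 1.66 at 6 h, and 1.43, 1.09 and 1.02 at 9 h. The 3 h arrays lay below all others, the 9 h arrays below all those of 0.5 h and 6 h, and the 6 h arrays below all those of 0.5 h. Kcnh2 fell by 1.15 (SE 0.13, adjusted p = 0.000304), 2.22-fold, by 3 h, rose by 0.75 (SE 0.13, adjusted p = 0.00505) from 3 h to 6 h, and remained below 0.5 h by 0.74 (SE 0.13, adjusted p = 0.00225), 1.67-fold, at 9 h. Both falls were called under every alternative setting and without any 1 array, and no other member's fall from 0.5 h to 3 h and to 9 h had that property.

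Kcnh3, which makes a Kv12 channel, was at -5.00, -4.59 and -4.89 at 0.5 h, and -5.82, -5.65 and -5.46 at 3 h. Kcnh3 was then at -5.00, -5.12 and -4.93 at 6 h, and -4.50, -4.49 and -3.91 at 9 h, with only 1 of 3 arrays at 0.5 h well above background. The 3 h arrays lay below all others and the 9 h arrays above all others. It fell by 0.82 (SE 0.17, adjusted p = 0.00817) by 3 h and rose by 0.71 (SE 0.17, adjusted p = 0.012) from 6 h to 9 h. The fall was not called with a common detection floor, nor the rise with that floor or under quantile and cyclic loess scaling. Its rises of 0.52 (SE 0.17, adjusted p = 0.0393) from 0.5 h to 9 h and 0.63 (SE 0.17, adjusted p = 0.0422) from 3 h to 6 h did not hold. The first ended without 0.5 h replicates 1 or 3, 3 h replicate 2, 6 h replicates 1, 2 or 3 or 9 h replicate 3 (adjusted p = 0.0512 to 0.116), as well as under median, quantile and cyclic loess scaling, with the common floor and with only the 2 times fitted. The second ended without 0.5 h replicate 3, 3 h replicates 1, 2 or 3, 6 h replicates 1, 2 or 3 or 9 h replicate 2 (adjusted p = 0.0503 to 0.143), as well as with no probe filter and with the common floor. Kcnh6, encoding ERG2, rose by 0.28 (SE 0.082, adjusted p = 0.0252) at 9 h, a call that ended without 0.5 h replicates 1 or 3 or 9 h replicate 3 (adjusted p = 0.0632 to 0.0867), as well as under median scaling. Kcnh1, Kcnh4, Kcnh7 and Kcnh8 were not called, and Kcnh5, with 2 of 3 arrays at 0.5 h above background, overlapped between 0.5 h and 9 h although it was called there (adjusted p = 0.037), a call that ended without 0.5 h replicates 2 or 3, 6 h replicates 1 or 3 or 9 h replicates 1 or 2 (adjusted p = 0.0503 to 0.121), as well as under median, quantile and cyclic loess scaling, with the common floor and with only the 2 times fitted.

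Inward rectifiers (Kcnj) pass potassium best near rest and include G-protein-gated GIRK channels, ATP-sensitive channels and the glial channel Kir4.1. Of 13 tested, 2 fell at 3 h, 2 fell at 6 h, and 1 rose and 1 fell at 9 h. Of all genes, 12.5% fell at 3 h, 9.43% fell at 6 h, and 22.4% rose and 10.9% fell at 9 h. Kcnj3, encoding the GIRK1 subunit through which opioid and other receptors inhibit neurons, was at 2.02, 1.99 and 2.13 at 0.5 h, and 1.28, 0.97 and 1.35 at 3 h. Kcnj3 was then at 1.55, 1.73 and 1.70 at 6 h, and 0.82, 1.11 and 0.93 at 9 h. All 0.5 h arrays lay above all others, and the 6 h arrays lay above those of 3 h and 9 h. Kcnj3 fell by 0.85 (SE 0.11, adjusted p = 0.000819), 1.8-fold, by 3 h and was lower by 1.09 (SE 0.11, adjusted p = 0.000166), 2.13-fold, at 9 h. It fell by 0.71 (SE 0.11, adjusted p = 0.00113) from 6 h to 9 h. The rise of 0.46 (SE 0.11, adjusted p = 0.0289) from 3 h to 6 h ended without 3 h replicates 1 or 2 or 6 h replicates 2 or 3 (adjusted p = 0.0591 to 0.101), as well as with the mean of its probes and with only the 2 times fitted. The fall of 0.39 (SE 0.11, adjusted p = 0.0483) at 6 h against 0.5 h ended without 0.5 h replicates 1, 2 or 3, 3 h replicate 1, 6 h replicates 1, 2 or 3 or 9 h replicate 3 (adjusted p = 0.0625 to 0.144), as well as under median and quantile scaling, with the mean of its probes, with the common floor and with p adjusted over genes detected at either time.

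The course of Kcnj3 given above was seen on 1 of its 3 probes, so the first 30 of the 60 bases of each are given here, with their places on rn4. Which exon, untranslated part or strand each matches was not determined here, so it is open whether the other probes measure the same transcript.
Kcnj3 probe used, chr3:37256278-37256337: acccctccgtacagtgtgaaagagcaggaa
Kcnj3 other probe 1, chr3:37069228-37069287: ctgggacatcttgacgaacatgcagccgat
Kcnj3 other probe 2, chr3:37258241-37258300: tgtgtactaacatagattttcctatacatt
Other probe 1 was well above background on 7 of 12 arrays. Its level at 0.5 h was -6.95 ± 0.097, where the probe used was at 2.05 ± 0.071. Other probe 1 differed at 3 h from 0.5 h by -0.058 (adjusted p = 0.88) and at 9 h by 0.56 (adjusted p = 0.0777). Other probe 2, above background on 11 of 12, differed by -0.26 (adjusted p = 0.586) and -0.25 (adjusted p = 0.556). Neither passed the threshold at 3 h or 9 h, and with the mean of the probes Kcnj3 was not called.

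**Figure D3:**
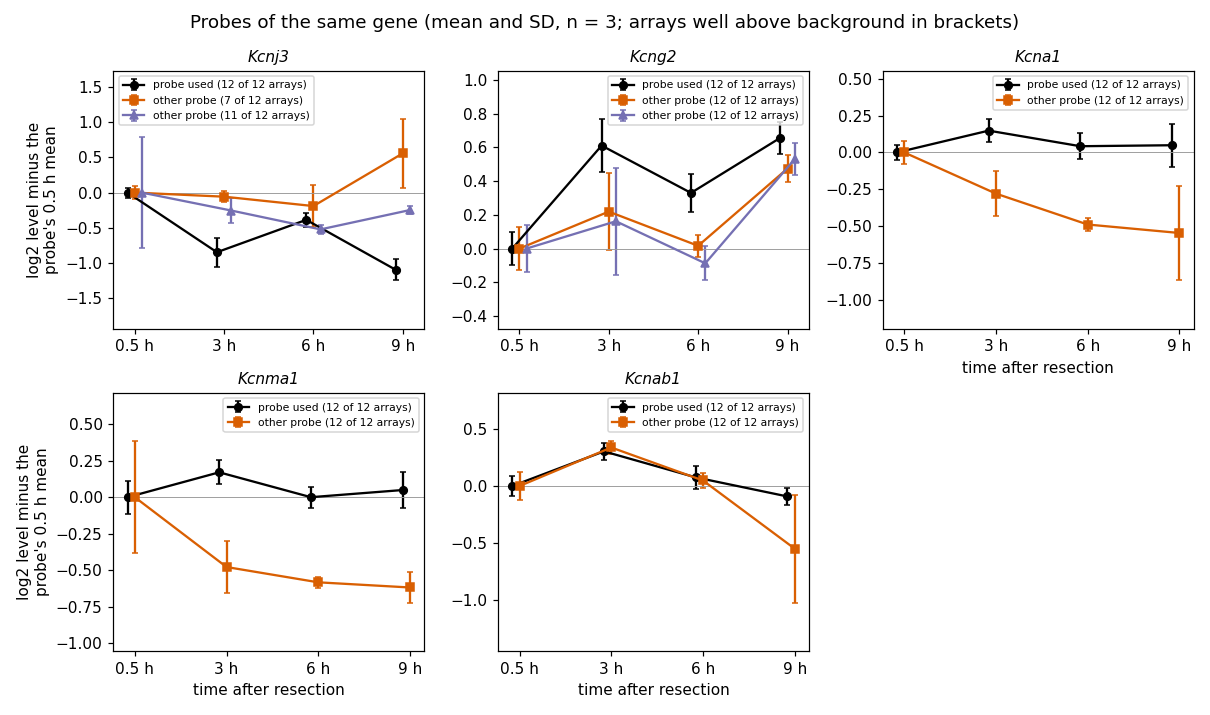
Mean and SD (n = 3) at each time of every kept probe of 5 members, as log2 level minus that probe's own 0.5 h mean, with the number of arrays well above background in brackets. The black lines are the probes used. The other probes of Kcnj3 do not follow its black line, and the 3 probes of Kcng2 all end higher at 9 h. The second probes of Kcna1, Kcnma1 and Kcnab1 end lower at 9 h, while the lines of the probes used end near 0.

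Kcnj8, the Kir6.1 pore of vascular ATP-sensitive channels, was at 0.38, 0.51 and 0.36 at 0.5 h, and -0.19, -0.038 and -0.11 at 3 h. Kcnj8 was then at 0.22, 0.49 and 0.38 at 6 h, and 0.49, 0.71 and 0.25 at 9 h. The 3 h arrays lay below all others, and Kcnj8 fell by 0.52 (SE 0.11, adjusted p = 0.00983), 1.44-fold, by 3 h. Its rise of 0.47 (SE 0.11, adjusted p = 0.028) from 3 h to 6 h ended without 3 h replicates 1 or 3 or 6 h replicates 2 or 3 (adjusted p = 0.0696 to 0.0979). At 9 h it differed from 0.5 h by 0.068 (SE 0.11, adjusted p = 0.671). Of 6 vascular smooth muscle and pericyte markers, 4 were tested and did not pass the threshold at 3 h. Their mean level, relative to each gene's mean over the arrays, was -0.40 to -0.035 on the 0.5 h arrays and -0.21 to 0.11 at 3 h, and Acta2 and Myh11 were not tested. Of 5 endothelial markers 2 rose and 1 fell at 3 h, where 10.7% of all genes rose and 12.5% fell. The mean level of the endothelial markers was -0.15 to 0.037 at 0.5 h and 0.058 to 0.13 at 3 h. The part of these cells in the Kcnj8 result was not tested. Kcnj11, the Kir6.2 pore of neuronal ATP-sensitive channels, was at -0.83 ± 0.036 at 0.5 h, -0.54 ± 0.094 at 3 h, -0.77 ± 0.24 at 6 h and -0.69 ± 0.080 at 9 h and was not called. Kcnj12 fell by 0.39 (SE 0.10, adjusted p = 0.0338) at 6 h against 0.5 h, a call that ended without 0.5 h replicates 2 or 3, 3 h replicate 1 or 6 h replicates 1 or 3 (adjusted p = 0.0511 to 0.115), as well as under median scaling and with only the 2 times fitted. Its fall of 0.41 (SE 0.10, adjusted p = 0.0309) from 3 h to 6 h ended without 3 h replicates 1 or 3 or 6 h replicates 1 or 3 (adjusted p = 0.068 to 0.121), as well as under cyclic loess scaling.

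Kcnj10, the Kir4.1 channel of satellite glia, was undetected on every 0.5 h array. It was at -6.18 ± 0.57 at 0.5 h, -5.92 ± 0.15 at 3 h, -5.83 ± 0.14 at 6 h and -5.44 ± 0.050 at 9 h; it was called at 9 h with no usable bound (adjusted p = 0.0318), and that call ended without 9 h replicates 1, 2 or 3 (adjusted p = 0.0631 to 0.0807), as well as under median and quantile scaling, with the common floor and with only the 2 times fitted. Its usual partner Kcnj16 was not called. Kcnj15 was well above background at 9 h on 3 of 3 arrays and at 6 h on none, and its level was at least 2.31-fold higher at 9 h. It was kept only through its 9 h arrays, so no test is given for this. Kcnj5, Kcnj6 and Kcnj13 were not called in any comparison. Kcnj4, Kcnj9 and Kcnj14 were called only from 6 h to 9 h. The call of Kcnj4 ended without 3 h replicates 1, 2 or 3, 6 h replicates 1, 2 or 3 or 9 h replicates 1, 2 or 3 (adjusted p = 0.0635 to 0.155), as well as under median, quantile and cyclic loess scaling. That of Kcnj9 ended without 6 h replicate 3 (adjusted p = 0.052), as well as under median, quantile and cyclic loess scaling and with the common floor. That of Kcnj14 ended without 6 h replicate 3 or 9 h replicate 3 (adjusted p = 0.0527 to 0.0558), as well as under median, quantile and cyclic loess scaling.

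Two-pore channels (Kcnk) carry background current, and TREK and TRESK channels are abundant in sensory neurons. Of 11 tested, none was called at 3 h or 6 h against 0.5 h (1 and 4 at an unadjusted p under 0.05), and 2 rose at 9 h. Of all genes, 10.7% rose and 12.5% fell at 3 h, 4.01% and 9.43% at 6 h, and 22.4% rose at 9 h. Kcnk3, encoding the acid-sensitive TASK1, was undetected on every 0.5 h array. It was at -5.16, -4.72 and -4.68 at 0.5 h, and -4.65, -5.31 and -4.77 at 3 h. Kcnk3 was then at -5.00, -4.57 and -4.86 at 6 h, and -4.13, -3.98 and -3.93 at 9 h, with the 9 h arrays above all others, and rose at least 1.63-fold from 0.5 h to 9 h, with a fitted difference of 0.84 (SE 0.19, adjusted p = 0.00859). From 6 h to 9 h, where all 6 arrays measured it, it rose by 0.80 (SE 0.19, adjusted p = 0.0122). Neither rise was called under cyclic loess scaling, nor the second under quantile scaling.

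Kcnk5 fell by 0.53 (SE 0.12, adjusted p = 0.00981) from 6 h to 9 h. It was at -0.055, -0.098 and 0.16 at 0.5 h, and -0.24, -0.055 and -0.022 at 3 h. Kcnk5 was then at 0.62, 0.19 and 0.24 at 6 h, and -0.14, -0.15 and -0.25 at 9 h, so that the 6 h arrays lay above all others and the 9 h arrays overlapped with those of 3 h. Its rise of 0.45 (SE 0.12, adjusted p = 0.0397) from 3 h to 6 h ended without 0.5 h replicates 1 or 2, 3 h replicates 1, 2 or 3, 6 h replicates 1 or 3 or 9 h replicates 1 or 2 (adjusted p = 0.0508 to 0.138), as well as under median scaling, with no probe filter and with only the 2 times fitted. Kcnk9 and Kcnk12 rose from 6 h to 9 h by 0.48 (SE 0.12, adjusted p = 0.0138) and 0.39 (SE 0.11, adjusted p = 0.0283). The call of Kcnk9 ended without 6 h replicate 3 or 9 h replicate 3 (adjusted p = 0.0533 to 0.058), as well as under median scaling. That of Kcnk12 ended without 6 h replicates 2 or 3 or 9 h replicates 1 or 3 (adjusted p = 0.0676 to 0.104), as well as under median scaling. The rise of Kcnk12 against 0.5 h at 9 h (0.33 (SE 0.11, adjusted p = 0.0469)) ended without 0.5 h replicates 1, 2 or 3, 3 h replicate 1, 6 h replicates 1, 2 or 3 or 9 h replicates 1 or 3 (adjusted p = 0.0518 to 0.132), as well as under median scaling and with the common floor. The mechanically gated TREK1 gene Kcnk2 was at 1.96 ± 0.073 at 0.5 h, 1.95 ± 0.037 at 3 h, 1.80 ± 0.054 at 6 h and 1.82 ± 0.070 at 9 h. TREK2 (Kcnk10) was at -1.56 ± 0.014 at 0.5 h, -1.45 ± 0.12 at 3 h, -1.76 ± 0.076 at 6 h and -1.56 ± 0.12 at 9 h. It fell by 0.31 (SE 0.081, adjusted p = 0.0379) from 3 h to 6 h, a call that ended without 0.5 h replicates 1, 2 or 3, 3 h replicates 1 or 3, 6 h replicates 1, 2 or 3 or 9 h replicate 2 (adjusted p = 0.0515 to 0.143), as well as under median and cyclic loess scaling, with no probe filter and with only the 2 times fitted. TRESK (Kcnk18) was at -1.15 ± 0.15 at 0.5 h, -1.25 ± 0.18 at 3 h, -1.51 ± 0.13 at 6 h and -1.36 ± 0.21 at 9 h. These levels, and that of TWIK1 (Kcnk1) at 1.03 ± 0.26 at 0.5 h, 1.12 ± 0.077 at 3 h, 0.91 ± 0.11 at 6 h and 0.85 ± 0.10 at 9 h, overlapped between 0.5 h and 9 h. Kcnk4, Kcnk6 and Kcnk13 were not called in any comparison. None of the former 4 differed from 0.5 h past the threshold at any later time, and the largest of their differences from 0.5 h was -0.36 (SE 0.13, adjusted p = 0.102), that of Kcnk18 at 6 h.

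Calcium- and sodium-activated channels comprise the large-conductance BK channel (Kcnma1) with its beta subunits (Kcnmb), the small- and intermediate-conductance channels (Kcnn) and the sodium-activated channels (Kcnt). Of 11 tested, none was called at 3 h or 6 h against 0.5 h (0 and 1 at an unadjusted p under 0.05), and 2 rose and 1 fell at 9 h. Of all genes, 10.7% rose and 12.5% fell at 3 h, 4.01% and 9.43% at 6 h, and 22.4% and 10.9% at 9 h. Kcnmb3 was at -4.48, -3.53 and -3.45 at 0.5 h, and -3.99, -3.77 and -3.52 at 3 h. Kcnmb3 was then at -4.48, -4.05 and -4.39 at 6 h, and -2.79, -2.61 and -2.47 at 9 h. The 9 h arrays lay above all others, and 1 of the 0.5 h arrays was well below the other 0.5 h arrays. Kcnmb3 rose by 1.20 (SE 0.25, adjusted p = 0.00626), 2.29-fold, against 0.5 h and by 1.68 (SE 0.25, adjusted p = 0.000838), 3.21-fold, against 6 h.

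Kcnmb2, which inactivates BK channels, was at -2.02, -1.92 and -1.88 at 0.5 h, and -1.79, -1.88 and -2.00 at 3 h. Kcnmb2 was then at -1.90, -1.85 and -1.93 at 6 h, and -2.15, -2.31 and -2.23 at 9 h. All 9 h arrays lay below all others, and Kcnmb2 fell by 0.29 (SE 0.072, adjusted p = 0.0125) against 0.5 h and by 0.33 (SE 0.072, adjusted p = 0.00699) against 6 h. Kcnmb1, the beta subunit known from smooth muscle, was called higher only from 6 h to 9 h (0.79, adjusted p = 0.028), a call that ended without 6 h replicates 1 or 2 or 9 h replicates 2 or 3 (adjusted p = 0.0506 to 0.0941), as well as under median, quantile and cyclic loess scaling, with the mean of its probes and with only the 2 times fitted. Kcnmb4, the neuronal beta subunit, was at 0.45 ± 0.18 at 0.5 h, 0.61 ± 0.20 at 3 h, 0.49 ± 0.11 at 6 h and 0.60 ± 0.16 at 9 h and was not called. Kcnma1 itself was at -0.12 ± 0.11 at 0.5 h, 0.055 ± 0.082 at 3 h, -0.12 ± 0.072 at 6 h and -0.066 ± 0.12 at 9 h on the probe used and was not called, whereas its second probe, well above background on all 12 arrays, was at -3.28 ± 0.38 at 0.5 h, -3.76 ± 0.18 at 3 h, -3.87 ± 0.038 at 6 h and -3.90 ± 0.10 at 9 h and differed from 0.5 h by -0.62 (adjusted p = 0.0184) at 9 h. The first 30 bases of both Kcnma1 probes are given because they differ in course.
Kcnma1 probe used, chr15:949056-949115: acggataatgcctatcccagaaacattcaa
Kcnma1 other probe, chr15:950209-950268: aaagtcagacaatgttcactgtcaaggaaa

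Kcnn3, which encodes the small-conductance channel SK3, was at -3.19, -2.88 and -3.16 at 0.5 h, and -3.17, -3.32 and -3.22 at 3 h. Kcnn3 was then at -2.90, -2.86 and -3.04 at 6 h, and -2.66, -2.64 and -2.49 at 9 h. The 9 h arrays lay above all others, and Kcnn3 rose by 0.48 (SE 0.095, adjusted p = 0.00462), 1.39-fold, against 0.5 h. Its rise of 0.34 (SE 0.095, adjusted p = 0.027) from 6 h ended without 6 h replicates 1 or 3 or 9 h replicate 3 (adjusted p = 0.0537 to 0.104), as well as under median, quantile and cyclic loess scaling. Kcnn1, Kcnn2, Kcnn4, Kcnt1 and Kcnt2 were not called in any comparison, and the time means of Kcnt1, the Slack channel, lay between -1.16 and -0.97. Kcnrg, a regulator of channel assembly and the only member outside these families, was undetected on every 0.5 h array and was called at 9 h with no usable bound (adjusted p = 0.00317), a call that ended under quantile scaling and with the common floor. Its rise of 0.68 (SE 0.21, adjusted p = 0.04) from 6 h to 9 h ended without 0.5 h replicate 3, 3 h replicate 1, 6 h replicates 1, 2 or 3 or 9 h replicates 2 or 3 (adjusted p = 0.0531 to 0.128), as well as under median, quantile and cyclic loess scaling and with the common floor.

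**Figure D4:**
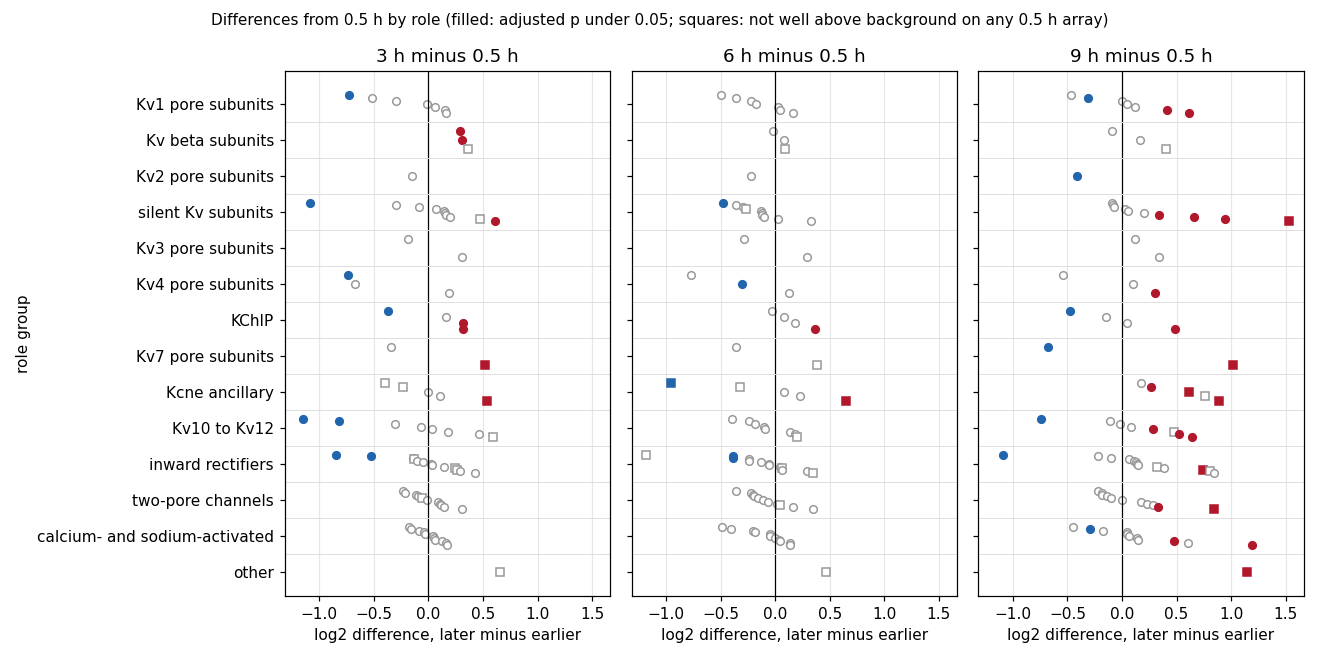
Log2 differences of 81 tested members from 0.5 h at 3 h, 6 h and 9 h (panels), by role group (rows); filled red points rose and filled blue points fell at an adjusted p under 0.05, and squares were undetected on every 0.5 h array. At 3 h the points of the two-pore and the calcium- and sodium-activated channels all lie between -0.23 and 0.31, while Kcnh2 is at -1.15 and Kcns2 at -1.08.

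The split into rises and falls, of members and of all genes alike, depended on how arrays were scaled to each other. From 6 h to 9 h it was 8 rose and 14 fell with median scaling, 9 and 11 with quantile scaling and 10 and 11 with cyclic loess scaling, in place of 21 and 5. Of all genes, 3559 rose and 6090 fell with median scaling, 3253 and 3632 with quantile scaling and 3705 and 2974 with cyclic loess scaling, in place of 5669 and 1762. Median scaling moved the median of all genes in that comparison from 0.11 to -0.099, and that from 0.5 h to 9 h from 0.10 to -0.014. From 0.5 h to 9 h, 12 rose and 13 fell with median scaling, 15 and 11 with quantile scaling, and 19 and 12 with cyclic loess. All genes gave 4292 and 5094, 5058 and 4404, and 6389 and 4545 in that order, in place of 6643 and 3219. The splits of members from 0.5 h to 3 h were 12 and 8, 9 and 9, and 12 and 13 in the same order, beside 4777 and 2827, 3765 and 3270, and 4491 and 4427 for all genes. From 0.5 h to 6 h they were 3 and 2, 5 and 2, and 8 and 5, and from 3 h to 6 h they were 8 and 2, 9 and 2, and 10 and 0 (no member fell under cyclic loess scaling). All genes gave 2279 and 1758, 2163 and 1727, and 3600 and 2857 from 0.5 h to 6 h, and 1636 and 1019, 1732 and 1003, and 2101 and 944 from 3 h to 6 h. With normexp background correction of the raw spot signals, 2 members (Kcnh2 and Kcnj3) fell at 3 h and 3, including those 2, fell at 9 h, and these were the only calls among members. No member was then called at 6 h against 0.5 h, from 3 h to 6 h or from 6 h to 9 h, where 6, 14 and 12 members had an unadjusted p under 0.05. The share of all genes at an unadjusted p under 0.05 is not given here. Such counts, also those of the role groups above, therefore cannot be set against all genes. Of all genes, 652 were called at 3 h and 436 at 9 h under that correction, against 6876 and 9862 as reported. At 6 h against 0.5 h, 1 of all genes was called, against 3982 as reported. From 3 h to 6 h it was 319 against 3344, and from 6 h to 9 h 166 against 7431. Leaving out each array in turn, 10 of the 16 calls at 3 h, 1 of 7 at 6 h and 18 of 29 at 9 h held every time, as did 3 of 13 from 3 h to 6 h and 16 of 26 from 6 h to 9 h. The share of all called genes that held is not given here, so the stability of member calls cannot be set against it.

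**Figure D5:**
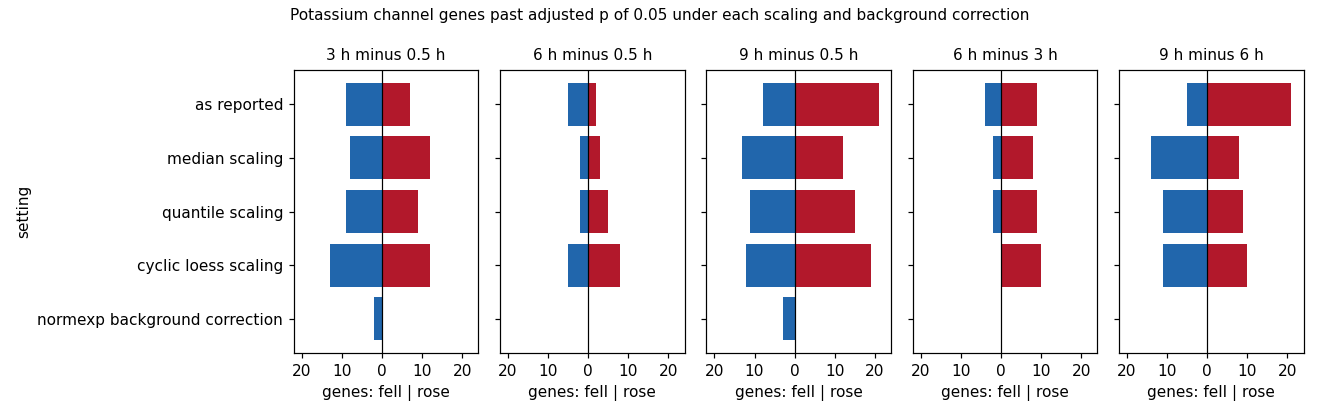
Number of potassium channel genes past an adjusted p of 0.05 in each of 5 comparisons (panels), to the right those that rose and to the left those that fell, under 5 settings (rows). From 6 h to 9 h the bars turn from 21 rose and 5 fell as reported to 8 rose and 14 fell under median scaling, and normexp background correction leaves 2 genes at 3 h and 3 at 9 h.

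Genes whose proteins bind or regulate these channels were taken from a list of 21, of which 19 were tested. Against 0.5 h, 4 rose at 3 h, 2 at 6 h and 4 at 9 h (10.7%, 4.01% and 22.4% of all genes rose). Gng3, a G-protein gamma subunit of the kind that opens GIRK channels, rose by 0.51 (SE 0.11, adjusted p = 0.0095) at 3 h, 0.50 (SE 0.11, adjusted p = 0.0174) at 6 h and 0.34 (SE 0.11, adjusted p = 0.0378) at 9 h. The call at 6 h ended without 6 h replicates 1 or 3 (adjusted p = 0.0506 to 0.0631). That at 9 h ended without 0.5 h replicates 1, 2 or 3, 6 h replicate 3 or 9 h replicates 2 or 3 (adjusted p = 0.0533 to 0.124), as well as under median scaling and with the common floor. Nedd4l, a ubiquitin ligase that removes channels from the membrane, rose by 0.29 (SE 0.072, adjusted p = 0.0184) at 3 h and 0.31 (SE 0.072, adjusted p = 0.0092) at 9 h, though the first ended without 3 h replicates 1 or 3 (adjusted p = 0.0515 to 0.0524) and the second under median scaling. Dpp10, a Kv4 partner, and Gnb1 rose at 3 h by 0.33 (SE 0.091, adjusted p = 0.029) and 0.16 (SE 0.047, adjusted p = 0.0362). The call of Dpp10 ended without 0.5 h replicates 1 or 3 or 3 h replicates 1 or 2 (adjusted p = 0.064 to 0.0937), as well as with only the 2 times fitted. That of Gnb1 ended without 0.5 h replicates 1, 2 or 3, 3 h replicates 1, 2 or 3, 6 h replicates 2 or 3 or 9 h replicate 2 (adjusted p = 0.0507 to 0.0927), as well as under quantile and cyclic loess scaling and with only the 2 times fitted. Lrrc26, a BK gamma subunit, rose by 1.16 (SE 0.21, adjusted p = 0.003) at 9 h and by 1.29 (SE 0.21, adjusted p = 0.00136) from 6 h. Lrrc52, a further gamma subunit, was undetected on every 0.5 h array. It was called higher at 6 h (adjusted p = 0.0483) and 9 h (adjusted p = 0.00153) with no usable bound, and both calls ended with the common floor. That at 6 h also ended without any 1 array of 0.5 h or 6 h, 3 h replicate 1 or 9 h replicate 2. The adjusted p was then 0.0588 to 0.138. The 6 h call ended as well with limma-trend and with p adjusted over genes detected at either time. Of the others, the ATP-sensitive channel regulators Abcc8 and Abcc9, Dpp6, Amigo1, Rest and Ehmt2 were not called in any comparison.

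The tissue label was checked with marker genes. All 12 sensory neuron markers, among them Calca, Scn10a, Trpv1 and Isl1, were well above background on all 12 arrays, and their mean level relative to each gene's mean over the arrays stayed between -0.16 and 0.14. Against 0.5 h, 1 of these 12 rose and 1 fell at 3 h, 2 fell at 6 h and 1 rose at 9 h. From 3 h to 6 h 1 rose and 1 fell, and from 6 h to 9 h 2 rose. Of all genes, 10.7% rose and 12.5% fell at 3 h, 9.43% fell at 6 h and 22.4% rose at 9 h. From 3 h to 6 h 5.71% of all genes rose and 5.58% fell, and from 6 h to 9 h 19.1% rose. Markers of other tissues varied more, and within times. The 8 skeletal muscle markers stood at -1.21 to 1.25 on the 3 h arrays and at -1.15 to 2.17 on the 6 h arrays. The 5 oligodendrocyte markers stood at -0.71 to -0.53 at 6 h and 0.003 to 0.97 at 9 h, and 3 of them rose between these times. From 6 h to 9 h 19.1% of all genes rose, a share that depended on the scaling as given above. The leukocyte markers reached 1.08 on 1 array of 6 h. The part of these cells in the members' results was not tested.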

How the data were processed

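Rat lumbar ganglia were measured on 12 one-colour Agilent arrays, 3 at each of 4 times. Per the file headers, the authors' intensity values are the scanner's processed signals, background-subtracted and detrended by Agilent Feature Extraction 10.5.1.1 with no scaling between arrays. The deposited flags of that software marked outlier spots and spots well above background. The deposited series-wide table equalled the processed signals (largest difference 0).

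Here, log2 of the deposited intensity minus the array's 75th percentile over 43379 non-control spots was used, with outlier spots left out and spots of 1 probe averaged. The flag had to mark a probe on all 3 arrays of some time, which kept 34841 of 41012 probes. The kept probe with the highest mean stood for each of 29626 genes. Differences between times were tested with limma 3.58.1 (lmFit and eBayes, all 12 arrays in 1 fit) in R 4.3.3, two-sided, with Benjamini-Hochberg adjustment over all genes. The number of arrays limits the precision.

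Members were all genes named Kcn plus a lower-case letter, and all were grouped by role. The genes named were, by rule, called members with no overlap of the arrays compared, up to 12 each way against 0.5 h and up to 8 each way between later times, by size, and a fixed list of well-known members. Other members are named to account for them, after their values were seen; 4 members enter the counts but are not reported or drawn here. The members and lists were chosen with earlier results of these data known. The fit was tested on simulated data. Replicate numbers are shared between times in the labels. Among 18 pairs of same-numbered arrays, the correlations of deviations from the time means were -0.225 to 0.297 and 4 exceeded 0.1, so the numbers were not taken to pair the arrays. Probe positions are on rn4, per the deposited files, and symbols were compared with the RefSeq gene table of GRCr8, which matched 80 members by accession. Alternatives in background correction, scaling, probe filter, probe choice and blocks were run.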

Additional observations from a re-analysis of the deposited data

How the results depend on the processing

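The number of members called moved with the processing. With normexp background correction it was 2 at 3 h, 0 at 6 h and 3 at 9 h against 0.5 h, 0 from 3 h to 6 h, 0 from 6 h to 9 h, and 3 over the 4 times, in place of 16, 7, 29, 13, 26 and 37. With cyclic loess scaling it was 25 at 3 h and 13 at 6 h, with only the 2 times compared 10 at 3 h, without a filter on dim probes 17 at 6 h, and with only probes well above background on all 12 arrays 16 from 6 h to 9 h. With slide as a random block it was 40, 27, 48, 31, 46 and 65, but the consensus correlation was -0.257 and only the 6 h arrays span 2 slides. With a replicate block it was 3 at 6 h and 7 from 3 h to 6 h, against 14, 28, 22 and 33 in the other comparisons, although the numbers did not pair the arrays. Leaving out each array in turn gave 12 to 18, 1 to 9, 20 to 30, 3 to 16, 17 to 29 and 32 to 42. The lowest counts came without 3 h replicate 3, 6 h replicate 1, 0.5 h replicate 3 and, for the last 3 results, 6 h replicate 3. Of all genes, 4491 rose and 4427 fell at 3 h under cyclic loess scaling, and 3600 and 2857 at 6 h. Without the filter on dim probes, 1497 rose and 7528 fell at 6 h. With only probes well above background on all 12 arrays, 2923 rose and 1609 fell from 6 h to 9 h. All-gene counts for the blocks, the left-out arrays and the fits of 2 times are not given here. Those member counts therefore cannot be set against all genes. Differences that changed sign were Kcnq1 at 3 h (-0.07, normexp) and from 6 h to 9 h (-0.043, quantile scaling), Kcnv2 from 3 h to 6 h (0.61, normexp), Kcnj3 from 6 h to 9 h (0.10, mean of all kept probes), Kcne4 at 3 h (0.66, cyclic loess) and Kcne4 at 6 h (0.57 with normexp, 0.59 with quantile, 0.29 with cyclic loess scaling). The cause was not tested, except that averaging a probe with others changes Kcnj3 by construction. Members dim at 0.5 h have only a bound there, and signal over background limits those comparisons.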
